A study of Homo sapiens with 12 samples.

Results

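The 10 genes described here encode the core of ESCRT-III and its closest partners: the charged multivesicular body proteins CHMP1B, CHMP2A, CHMP2B, CHMP3, CHMP4A, CHMP4B and CHMP4C, the ATPases VPS4A and VPS4B, and PDCD6IP, which encodes the adaptor ALIX. They were chosen by gene name, though with earlier results of these data known. All 10 were listed among the 26485 genes of the deposited tables. ESCRT-III proteins assemble into spiral filaments on the inner face of a membrane neck and pinch it off, and VPS4 ATPases pull the filaments apart so that subunits can be used again. The same machinery sheds damaged patches of plasma membrane. In necroptosis, a form of regulated lysis run by the kinases RIPK1 and RIPK3 and the membrane-binding protein MLKL, ESCRT-III is known to delay the rupture that MLKL causes. The comparisons ask whether mRNA of these repair genes differs in necroptotic cells and when RIPK1 is inhibited.

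Polyadenylated RNA was sequenced from HT-29 cells, an established human colon adenocarcinoma line, after 8 h in 4 conditions with 3 libraries each. The DMSO group received the vehicle and the TNFα group 10 ng/ml TNFα. The TSZ group received 10 ng/ml TNFα with 50 nM SM-164, a Smac mimetic that removes inhibitor of apoptosis proteins, and 20 µM zVAD, a pan-caspase inhibitor. The TSZ+Nec-1s group received these agents at the same concentrations with 10 µM Nec-1s, an inhibitor of the RIPK1 kinase. All groups are of this 1 cell line, the labels give no altered allele, and no group with SM-164, zVAD or Nec-1s alone was analysed here. The labels number the libraries of a group 1 to 3 without saying if each had its own culture, and the p-values therefore reflect differences between libraries that may be technical only.

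The tables give the mean of each group, from which the whole reads of each library were solved. For all 10 genes 1 set of whole reads fitted each group mean. Libraries held an estimated 8781228 to 12730906 reads on genes, and the solved reads were 8707479 to 12565484. For genes not solved, the group mean times the size factor of the library was added. In TSZ a 10136241 of 11156556 reads were solved. These estimates are the total reads used for scaling below. They are lettered a to c within a group, which is not their number in the labels, and levels are reads divided by the size factor of the library. Of the colon epithelial markers, EPCAM, CDH1, KRT19 and KRT20 were at 3744, 4157, 7374 and 1404 in DMSO, whereas CDX1, CDX2 and TFF3 were at 0, 4.75 and 6.44. Over the 10 of 12 epithelial markers with reads solved per library the summed level was 20840 to 24030 in DMSO and 40325 to 42051 in TSZ. KRT8 and KRT18, whose reads per library were not solved, are not in this sum. Their group means were higher than the sum, at 77517 and 43186 in DMSO and 106550 and 67107 in TSZ. The 6 leukocyte markers summed to 15033 to 15344 in DMSO and 19766 to 21177 in TSZ, nearly all of it LYZ. The leukocyte genes PTPRC and CD3E and the endothelial gene CDH5 were at 0 in every library. The summed level of 8 fibroblast and endothelial markers ranged from 53.4 to 198 in DMSO, 47.2 to 63.1 in TNFα, 213 to 493 in TSZ and 42.7 to 60.8 in TSZ+Nec-1s. COL1A1 and COL1A2 made up most of it and were higher in TSZ than in TSZ+Nec-1s, and the part of these markers in the results was not tested. In 3 libraries, DMSO b, TNFα a and TSZ a, the deviation of genes from the group mean followed the GC content of the transcript, with Spearman correlations across genes of -0.81, -0.61 and -0.75. The other 6 libraries of these groups had correlations of the opposite sign, from 0.21 to 0.78, and since deviations are taken from the mean of the group, the values within a group are not independent. The 3 TSZ+Nec-1s libraries had correlations from -0.15 to 0.23. On the whole genes poor in GC read higher in DMSO b, TNFα a and TSZ a than in the rest of their groups, and counts of calls are also given without these 3. Leaving them out was chosen after seeing the data.

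In TSZ, 6 of the 10 genes were higher than in DMSO and 0 were lower (limma, adjusted p under 0.05 over 11738 genes tested). CHMP1B was 3.09-fold, CHMP2B 2.77-fold, CHMP4B 2.16-fold, CHMP4C 1.61-fold, CHMP2A 1.55-fold and PDCD6IP 1.26-fold higher. Across all genes tested 26% were higher and 24.2% lower in this comparison. The median log2 fold change of the 10 genes was 0.52, and that of all genes tested was -0.02. VPS4A, VPS4B, CHMP3 and CHMP4A did not pass the test. The same 6 genes were called higher, and 0 lower, without the 3 libraries that follow GC content. In that fit 32.7% of all genes were higher and 28.8% lower. With the GC trend removed 8 of the 10 were higher and 0 lower, beside 34.3% and 31.4% of all genes. In these bulk samples, fewer cells of a kind and less RNA per cell cannot be told apart.

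The scale matters for the genes that changed least. Size factors set the median gene near no change, whereas dividing by the total reads of each library moved the median of all genes from -0.02 to -0.43 in TSZ against DMSO and the calls from 3054 higher and 2837 lower to 1654 higher and 5702 lower. On total reads CHMP1B, CHMP2B, CHMP4B and CHMP4C were still called higher, with log2 fold changes of 1.22, 1.07, 0.70 and 0.28. CHMP2A fell short at 0.22, PDCD6IP was at -0.08, and VPS4A was called lower at -0.56. The median of the 10 genes went from 0.52 to 0.10. CHMP3, CHMP4A and VPS4B were called on neither scale, and their values turned from 0.40, 0.30 and 0.03 to -0.0071, -0.11 and -0.38.

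**Figure D1:**
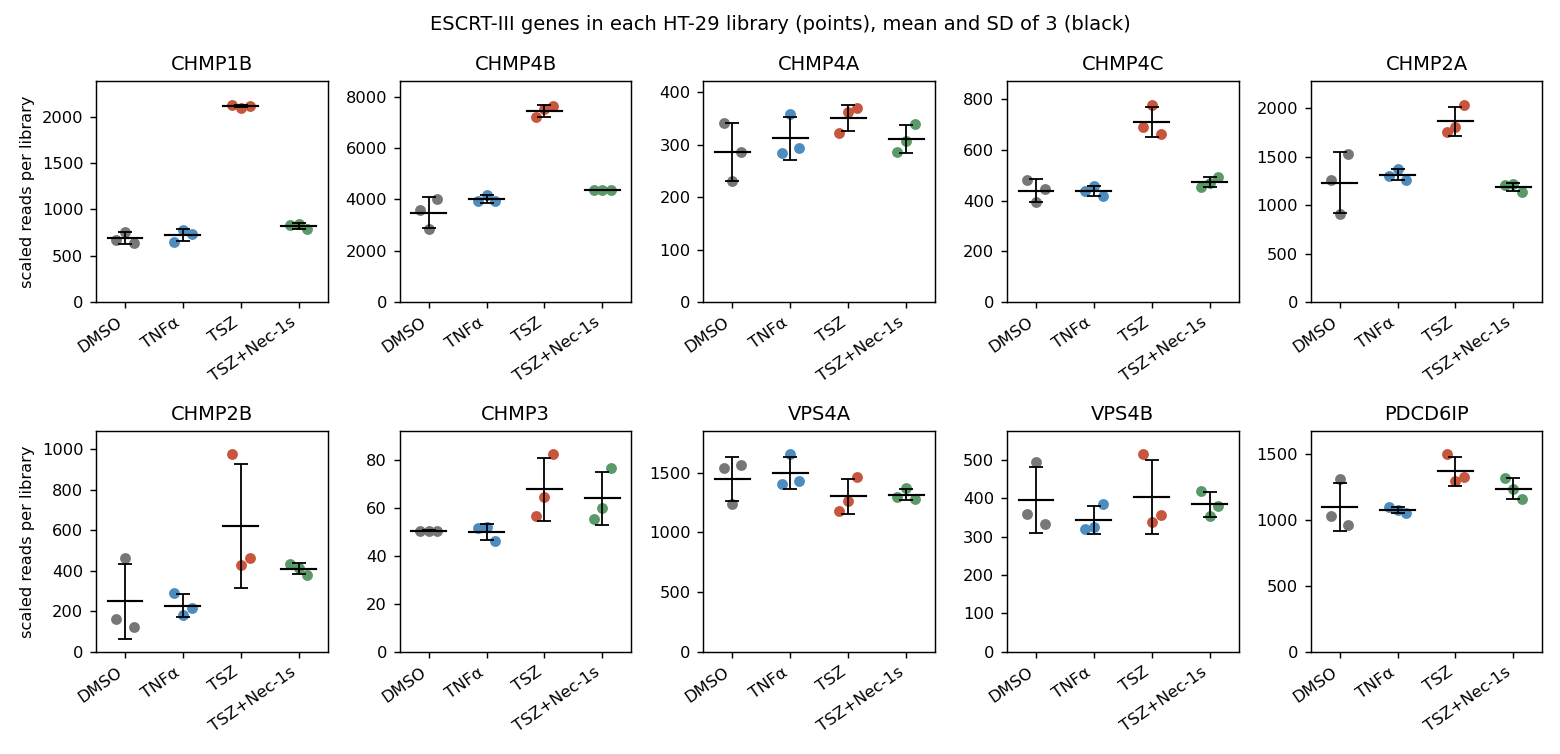
Scaled reads (reads divided by the library's size factor) of the 10 genes in each library, by group. Points are libraries a, b and c from left to right, and black lines are the mean and SD of 3. The CHMP1B, CHMP4B, CHMP4C and CHMP2A points of TSZ lie above those of the other groups, whereas the VPS4A and VPS4B points of TSZ overlap those of every other group.

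CHMP4 proteins are the most abundant filament subunits of ESCRT-III, and the genome holds 3 paralogs. CHMP4B (chr20:33811348-33854366, plus strand, hg38) was at 3595, 2860.0 and 4015 in DMSO libraries a to c, 3927, 4187 and 3926 in TNFα, 7203, 7511 and 7656 in TSZ and 4352, 4367 and 4364 in TSZ+Nec-1s. The TSZ libraries were above all others, and the highest DMSO library was below the lowest TSZ+Nec-1s library. CHMP4B averaged 7457 ± 231 in TSZ against 3490.0 ± 584 in DMSO (SD, n = 3 each; limma, log2 fold change 1.11, 95% CI 0.88 to 1.34, adjusted p = 2.08e-06). CHMP4C, a paralog known for its part in the abscission checkpoint of cell division, was at 483, 393 and 445 in DMSO, 439, 457 and 419 in TNFα, 690.0, 779 and 664 in TSZ and 455, 471 and 495 in TSZ+Nec-1s. The groups other than TSZ overlapped and the TSZ libraries were apart from them (TSZ against DMSO, limma, log2 fold change 0.69, 95% CI 0.46 to 0.92, adjusted p = 0.000141). Part of the CHMP4C exons is shared with ZFAND1, so reads there could have been left out of the count. CHMP4A (chr14:24209615-24213830, minus strand) was at 341, 230.2 and 286 in DMSO, 284, 359 and 293 in TNFα, 322, 361 and 369 in TSZ and 286, 306 and 340.0 in TSZ+Nec-1s. The ranges overlapped and CHMP4A did not pass the test (log2 fold change 0.30, 95% CI -0.03 to 0.63, adjusted p = 0.117, limma). It passed without DMSO a (0.45) and after GC trends were taken out of every library (0.38).

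Per kilobase of exon not shared with another listed gene, CHMP4B was the most abundant of the CHMP4 paralogs in every library. Its share of the summed CHMP4A, CHMP4B and CHMP4C reads per kilobase was 79.3% ± 2.0 in DMSO, 81.0% ± 0.748 in TNFα, 85.4% ± 0.640 in TSZ and 81.7% ± 0.961 in TSZ+Nec-1s (SD of 3 libraries). The share of CHMP4A was 10.6% ± 1.29 in DMSO and 6.56% ± 0.270 in TSZ, with no overlap between the libraries. These shares are computed within a library and do not depend on size factors. They were not tested.

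CHMP2A and CHMP2B join CHMP3 on the growing filament and recruit VPS4. CHMP2A (chr19:58551452-58555105, minus strand) was at 1256, 904 and 1532 in DMSO, 1302, 1378 and 1262 in TNFα, 1755, 1806 and 2036 in TSZ and 1211, 1215 and 1139 in TSZ+Nec-1s. Its lowest TSZ library was above the highest of every other group, while DMSO was the most spread of the groups (TSZ against DMSO, limma, log2 fold change 0.63, 95% CI 0.31 to 0.95, adjusted p = 0.0034). CHMP2B (chr3:87227271-87255556, plus strand) was at 162, 461 and 123 in DMSO, 289, 180.0 and 216 in TNFα, 974, 429 and 461 in TSZ and 433, 416 and 380.3 in TSZ+Nec-1s. The highest value of DMSO, TNFα and TSZ was in each case the library that follows GC content, and the CHMP2B transcript, at 35.2% GC, is the poorest in GC of the 10. In the limma fit CHMP2B had log2 fold change 1.47, 95% CI 0.60 to 2.35, adjusted p = 0.00855 in TSZ against DMSO. Without the 3 libraries the log2 fold change was 1.64 against DMSO and 0.11 against TSZ+Nec-1s (limma, adjusted p = 3.92e-10 and 0.352). The TSZ libraries that remain, b and c, have GC correlations of 0.55 and 0.59. With the GC trend removed CHMP2B was higher in TSZ than in TSZ+Nec-1s (limma, log2 fold change 0.77, adjusted p = 6.06e-05). The part of GC content in this difference was not tested. CHMP3 (chr2:86503430-86563479, minus strand) was the least abundant, at 50.4, 50.5 and 50.2 in DMSO, 51.4, 52.0 and 46.0 in TNFα, 56.6, 64.3 and 82.1 in TSZ and 55.4, 59.9 and 76.5 in TSZ+Nec-1s. The TSZ libraries were above those of DMSO but spread more widely, and CHMP3 did not pass the test (log2 fold change 0.40, 95% CI -0.02 to 0.82, adjusted p = 0.102, limma), although it did with the GC trend removed (0.49). Its exons are partly shared with the readthrough gene RNF103-CHMP3, so reads there could have been left out of the count.

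**Figure D2:**
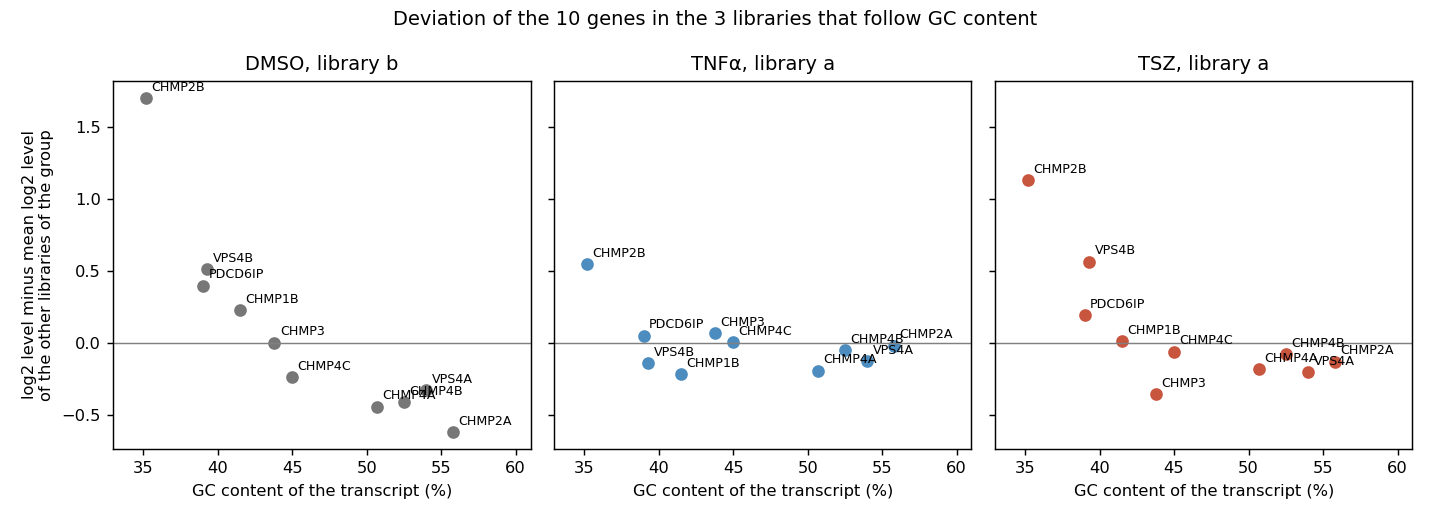
Deviation of the 10 genes in DMSO library b, TNFα library a and TSZ library a from the mean of the other libraries of the same group (y axis, log2) against the GC content of the transcript (x axis, percent). CHMP2B, at 35.2% GC, deviates by 1.70, 0.55 and 1.13, and CHMP2A, at 55.8% GC, by -0.62, -0.02 and -0.13.

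CHMP1B is a late-acting subunit that can coat membrane tubules together with IST1 and recruits the microtubule-severing enzyme spastin. It showed the largest fold change of the 10. CHMP1B (chr18:11851413-11854444, plus strand, 1 exon, with no intron) was at 664, 759.9 and 635 in DMSO, 650.3, 776 and 736 in TNFα, 2126, 2097 and 2116 in TSZ and 836, 838 and 786 in TSZ+Nec-1s. The lowest TSZ library was at 2097 and the highest of all others, in TSZ+Nec-1s, at 838. CHMP1B averaged 2113 ± 14.5 in TSZ and 686 ± 65.3 in DMSO (SD, n = 3 each; limma, log2 fold change 1.63, 95% CI 1.42 to 1.83, adjusted p = 1.98e-08). The pseudogene CHMP1B2P was listed at 0 in every group. Among the 5 genes whose log2 levels tracked CHMP1B most closely across the 12 libraries were UGDH, FRMD4B, TXNRD1 and CCNL1, with Pearson correlations from 0.992 to 0.994. These correlations rest on 12 libraries of 4 groups, and the points share group and library. UGDH, which makes UDP-glucuronate, was at 1286 in DMSO and 4506 in TSZ (group means), and TXNRD1, a thioredoxin reductase, at 6764 and 35448.

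The 150 bases before the start site are shown for CHMP1B and CHMP4B, which rose most strongly with groups apart, and for VPS4A, which did not pass the test, as a comparison. Capitals mark matches to the cyclic AMP response element TGACGTCA and to a κB-like motif GGGNNNNNCC, searched on both strands of the 300 bases from 250 before to 50 after the start (RefSeq, GRCh38.p14, plus strand). These stretches are chr18:11851263-11851412, chr20:33811198-33811347 and chr16:69311200-69311349.
CHMP1B: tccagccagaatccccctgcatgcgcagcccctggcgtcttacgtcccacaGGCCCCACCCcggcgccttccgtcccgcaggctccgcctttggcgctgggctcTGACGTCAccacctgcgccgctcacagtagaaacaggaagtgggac
CHMP4B: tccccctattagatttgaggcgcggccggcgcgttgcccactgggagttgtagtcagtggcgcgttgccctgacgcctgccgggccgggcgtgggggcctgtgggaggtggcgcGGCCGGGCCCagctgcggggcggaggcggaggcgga
VPS4A: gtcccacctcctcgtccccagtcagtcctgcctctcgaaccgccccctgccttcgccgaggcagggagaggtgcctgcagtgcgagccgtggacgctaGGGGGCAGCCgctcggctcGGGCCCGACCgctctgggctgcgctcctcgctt
Promoters were held for 8 of the 10 genes. The cyclic AMP response element was found in 1 of these 8, CHMP1B, from 46 bases before the start, and 1.85% of 35114 promoters of the same length hold it. The AP-1 motif TGANTCA was found in 0 of the 8, against 7.71% of promoters. The κB-like motif was found in 7 of the 8 and in 58.7% of promoters, and it lies before VPS4A as well as before CHMP1B and CHMP4B. The CArG box was in 0 of the 8, against 1.29%.

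VPS4A and VPS4B are the AAA ATPases that dismantle ESCRT-III filaments. VPS4A (chr16:69311350-69326939, plus strand) was at 1539.7, 1238 and 1565 in DMSO, 1408, 1653 and 1430.2 in TNFα, 1181, 1261 and 1467 in TSZ and 1293, 1373 and 1284 in TSZ+Nec-1s. The TSZ range overlapped that of every other group, and the interval of the TSZ difference from DMSO reached from -0.40 to 0.10 on the log2 scale (limma, log2 fold change -0.15, adjusted p = 0.303). Without DMSO b VPS4A was called lower in TSZ (-0.26, adjusted p = 0.0463). Part of its exons is shared with COG8 and PDF, so reads there could have been left out too. VPS4B (chr18:63389190-63422483, minus strand) was at 360.2, 494 and 332 in DMSO, 321, 325 and 384 in TNFα, 515, 339 and 357 in TSZ and 418, 355 and 379 in TSZ+Nec-1s. Its highest values lay in DMSO b and TSZ a, which follow GC content, and the test gave log2 fold change 0.03, 95% CI -0.36 to 0.42, adjusted p = 0.906 (limma). This interval holds changes of up to 1.33-fold.

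PDCD6IP (chr3:33798571-33869707, plus strand) encodes ALIX, which binds CHMP4 proteins and brings ESCRT-III to membranes. It was at 1026, 1307 and 957 in DMSO, 1099, 1071 and 1049 in TNFα, 1494, 1290.0 and 1321 in TSZ and 1318, 1234 and 1154 in TSZ+Nec-1s. The TSZ libraries overlapped the highest DMSO library, b. The increase over DMSO was the smallest of those called (limma, log2 fold change 0.33, 95% CI 0.08 to 0.58, adjusted p = 0.0305). It was lost on leaving out DMSO a, DMSO c, TSZ a or TSZ c (limma, adjusted p from 0.0515 to 0.113) and with the 6 libraries of TSZ and DMSO alone (adjusted p = 0.127).

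**Figure D3:**
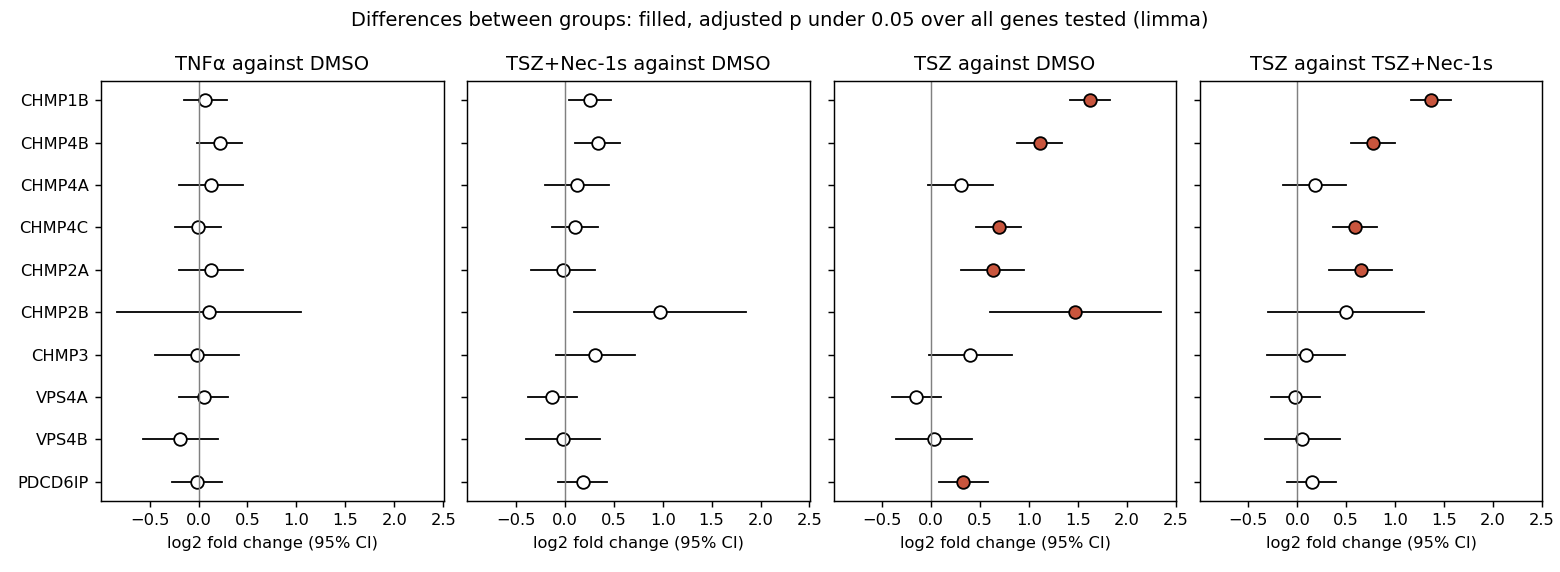
Log2 fold changes of the 10 genes with 95% confidence intervals in 4 comparisons. Filled points had an adjusted p under 0.05 in limma over all genes tested. In TSZ against DMSO 6 points are filled, in TSZ against TSZ+Nec-1s 4 are filled, and in the panels of TNFα and TSZ+Nec-1s against DMSO none is.

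With RIPK1 inhibited, 4 of the 10 genes were lower than with TSZ alone. CHMP1B was 2.58-fold, CHMP4B 1.71-fold, CHMP2A 1.57-fold and CHMP4C 1.5-fold higher in TSZ than in TSZ+Nec-1s (limma, adjusted p = 1.47e-07, 7.68e-05, 0.00369 and 0.000654), and these 4 were also the ones called without the 3 libraries that follow GC content. None of the 10 was higher in TSZ+Nec-1s. Of all genes tested, 22.7% were higher in TSZ and 19.8% lower, and 32% and 31% without the 3 libraries. The median log2 fold change was 0.34 for the 10 genes and -0.02 for all genes tested. On total reads these medians were 0.0025 and -0.35. CHMP2B was 1.41-fold higher in TSZ but did not pass the test (95% CI -0.30 to 1.29 on the log2 scale), and PDCD6IP differed by 0.15 (95% CI -0.10 to 0.39). Both passed with the GC trend removed, at 0.77 and 0.36, beside 30.7% of all genes higher and 27.8% lower. On total reads CHMP2A lost its call in this comparison (limma, log2 fold change 0.31, adjusted p = 0.0639) and VPS4A was called lower in TSZ (-0.36), while the calls over all genes went from 2662 higher and 2322 lower to 1382 and 4943.

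TSZ+Nec-1s against DMSO gave 0 calls among the 10 genes in limma, with 3 at an unadjusted p under 0.05. Over all genes tested 7.16% were higher and 5.74% lower. The 3 were CHMP4B, at 4361 ± 8.12 against 3490.0 ± 584, CHMP1B, at 819.8 ± 29.5 against 686 ± 65.3, and CHMP2B, at 409.6 ± 26.7 against 249 ± 185 (SD, n = 3 each). Their adjusted p in limma was 0.0561, 0.107 and 0.145. Leaving out the 3 libraries that follow GC content brought CHMP1B, CHMP2B, CHMP4B and PDCD6IP above DMSO and CHMP2A and VPS4A below it (limma, log2 fold changes 0.34, 1.52, 0.20, 0.32, -0.22 and -0.24). The GC content of CHMP1B, CHMP2B, CHMP4B and PDCD6IP is 41.5%, 35.2%, 52.5% and 39%, and that of CHMP2A and VPS4A 55.8% and 54%. The 2 DMSO libraries that remain have the opposite GC correlation to those left out, 0.54 and 0.78. In that fit 27% of all genes were higher and 23.1% lower. The part of GC content in these differences was not tested. Without DMSO b alone CHMP1B, CHMP2B and PDCD6IP were called higher, where 2227 of 11723 genes were higher and 1691 lower. Without DMSO c CHMP4B was called higher, where 685 of 11738 genes were higher and 437 lower. With the GC trend removed from each library, CHMP2B and CHMP4B were called higher in TSZ+Nec-1s than in DMSO (0.66 and 0.41). There 15.9% of all genes were higher and 12.8% lower.

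None of the 10 genes passed the test with TNFα alone. Limma gave 0 calls against DMSO and 0 at an unadjusted p under 0.05, beside 3.13% of all genes tested higher and 1.08% lower. The largest difference was that of CHMP4B, with 4014 ± 150.4 in TNFα against 3490.0 ± 584 in DMSO and an interval of -0.02 to 0.45 on the log2 scale. For CHMP1B the interval was -0.15 to 0.29, well below its difference in TSZ, whereas for CHMP2B it was -0.84 to 1.04, a range of up to 2.06-fold.

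TSZ against TNFα shares the TSZ libraries with the comparisons above, so its values are given side by side with them and not as support. Against TNFα, 6 of the 10 were higher in TSZ and 0 lower, where 22.8% of all genes tested were higher and 21.6% lower. The log2 fold changes were 1.56 for CHMP1B, 1.37 for CHMP2B, 0.89 for CHMP4B, 0.69 for CHMP4C, 0.50 for CHMP2A and 0.35 for PDCD6IP (limma, adjusted p from 4.14e-08 to 0.0269). The call of PDCD6IP ended without TNFα a, b or c or TSZ a, that of CHMP2A without TNFα c or TSZ c, and that of CHMP2B without TNFα b or TSZ a. With the GC trend removed the call of PDCD6IP also ended (0.20, adjusted p in limma = 0.167), and CHMP3 and CHMP4A were called higher (0.46 and 0.28, adjusted p = 0.0404 and 0.0426). In that fit 31.7% of all genes were higher and 29.3% lower. Without the 3 libraries that follow GC content the same 6 genes were called, beside 30.4% of all genes higher and 25.7% lower. On total reads 3 stayed higher, CHMP1B, CHMP4B and CHMP4C, and VPS4A was called lower, while the calls over all genes went from 2674 higher and 2535 lower to 1480 and 4983. TSZ+Nec-1s against TNFα gave 0 calls in limma and 1 gene, CHMP2B, at an unadjusted p under 0.05, with 1.09% of all genes tested higher and 0.256% lower. Without the 3 libraries that follow GC content CHMP2B and PDCD6IP were called higher and VPS4A lower in TSZ+Nec-1s (limma, 1.06, 0.22 and -0.23), in a fit where 22.1% of all genes were higher and 19.1% lower. With only the 6 libraries compared CHMP2B and PDCD6IP were called higher, where 1998 of 11637 genes were higher and 1160 lower. With the GC trend removed CHMP4B was called higher (0.25), beside 3.61% of all genes higher and 1.57% lower.

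Ratios within a library do not depend on size factors or totals. Relative to VPS4A, CHMP4B reads were at 2.40 ± 0.141 per VPS4A read in DMSO and 5.76 ± 0.473 in TSZ, with 2.69 ± 0.137 in TNFα and 3.32 ± 0.117 in TSZ+Nec-1s (SD, n = 3 each). CHMP1B was at 0.484 ± 0.113 reads per VPS4A read in DMSO, 1.64 ± 0.180 in TSZ and 0.623 ± 0.0204 in TSZ+Nec-1s. For CHMP2A the ratio was 0.842 ± 0.126 in DMSO, 1.44 ± 0.0490 in TSZ and 0.903 ± 0.0289 in TSZ+Nec-1s, and for CHMP4C it was 0.305 ± 0.0182, 0.551 ± 0.0873 and 0.360 ± 0.0225. For each of these 4 genes the lowest TSZ ratio was above the highest ratio of every other group. These 4 are the genes called higher in TSZ than in TSZ+Nec-1s, and their TSZ levels were already apart from the other groups. VPS4A was called lower in TSZ on total reads. The separation therefore follows from the choice of genes and is not separate support. The other genes were not divided by VPS4A. A ratio of this kind shows unequal change and not which gene changed.

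**Figure D4:**
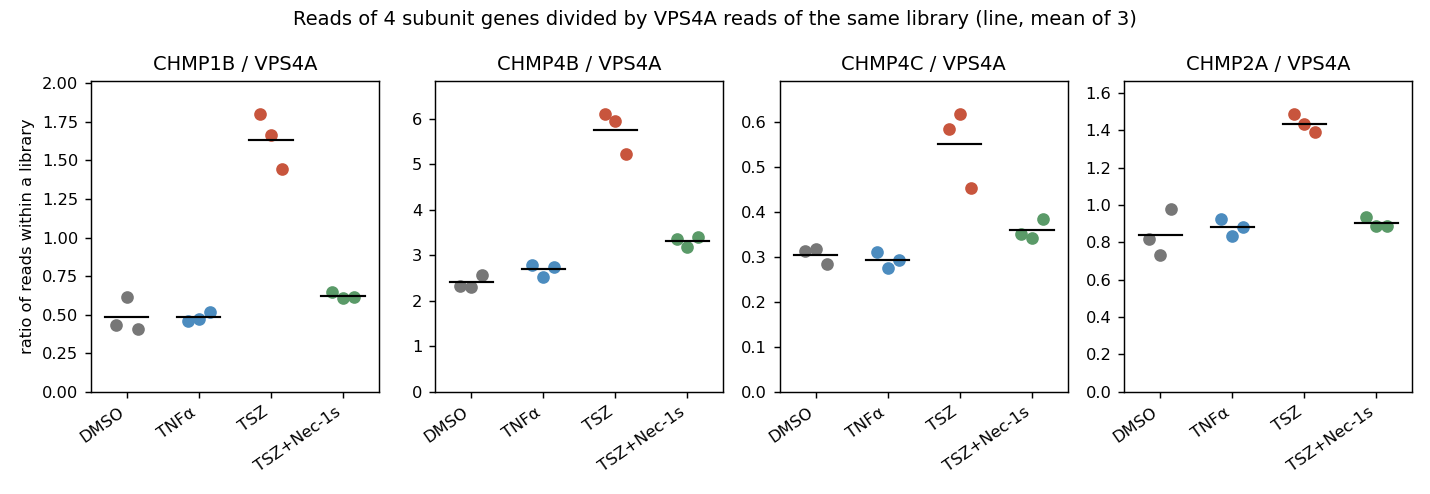
Reads of CHMP1B, CHMP4B, CHMP4C and CHMP2A divided by the VPS4A reads of the same library, by group, with the mean of 3 as a line. The TSZ libraries lie above the other groups in each panel, at 5.22 to 6.10 for CHMP4B against 2.31 to 2.57 in DMSO.

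Per kilobase of unshared exon, the order of levels in DMSO ran from CHMP4B (2179 ± 365 scaled reads per kilobase) through CHMP2A (1376 ± 352) and VPS4A (449 ± 56.4) to CHMP4A, CHMP4C and CHMP1B, then PDCD6IP, VPS4B, CHMP2B and, lowest, CHMP3 (21.2 ± 0.0490). Of these neighbours, CHMP4A and CHMP4C, CHMP4C and CHMP1B, CHMP1B and PDCD6IP, and VPS4B and CHMP2B overlapped between libraries. In TSZ CHMP1B, at 697 ± 4.80, stood above CHMP4C and VPS4A, and its libraries did not overlap those of its neighbours CHMP2A and CHMP4C. CHMP4B was first and CHMP3 last in both groups. CHMP3 had 56, 48 and 47 reads in the DMSO libraries. With 3 libraries, SDs as small as those of CHMP3 in DMSO, CHMP1B in TSZ and CHMP4B in TSZ+Nec-1s are themselves imprecise.

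Further lists place these genes in the pathway, and their genes were tested in the same fit. Of all genes, 26% were higher and 24.2% lower in TSZ than in DMSO, 14.1% and 48.5% on total reads, and 32.7% and 28.8% without the 3 libraries that follow GC content. For TSZ against TSZ+Nec-1s these shares were 22.7% and 19.8%, 11.8% and 42.1% on total reads, and 32% and 31% without the 3 libraries. Of 13 other ESCRT-III and VPS4 partners, 1 was higher and 2 were lower in TSZ than in DMSO, with a median log2 fold change of -0.06. On total reads 1 was higher and 6 lower, and without the 3 libraries that follow GC content 2 were higher and 5 lower. IST1, the partner of CHMP1B on membrane tubules, was at 1443 ± 147 in DMSO and 2499 ± 257 in TSZ (limma, log2 fold change 0.79, adjusted p = 3.41e-05). STAMBP, a deubiquitinase that binds ESCRT-III, was lower (-0.53), as was LEMD2, which recruits CHMP7 to the nuclear envelope (-0.49). In TSZ against TSZ+Nec-1s 1 was higher and 4 were lower, on total reads 1 and 8, and without the 3 libraries 3 and 6. CHMP6, which links ESCRT-II to CHMP4, and VTA1, an activator of VPS4, did not pass against DMSO but were lower in TSZ than in TSZ+Nec-1s (-0.62 and -0.63; limma, adjusted p = 0.0242 and 0.0182).

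Upstream, 8 of the 16 tested genes of ESCRT-0, ESCRT-I, ESCRT-II and bridging factors were higher in TSZ than in DMSO and 1 was lower, beside 26% and 24.2% of all genes, with a median log2 fold change of 0.34. VPS37B and VPS37C, alternative subunits of ESCRT-I, had log2 fold changes of 1.33 and 0.71, and UBAP1, another ESCRT-I subunit, 1.26 (limma, adjusted p = 2.07e-06, 0.000703 and 1.49e-07). UBAP1 averaged 892 ± 53.8 in DMSO, 946 ± 35.3 with TSZ+Nec-1s and 2141 ± 169 with TSZ. STAM of ESCRT-0 and PTPN23, which like ALIX carries a Bro1 domain, rose by 0.89 and 0.68. On total reads PTPN23 lost its call against DMSO (limma, 0.27, adjusted p = 0.0586), whereas VPS37B, VPS37C, UBAP1 and STAM kept theirs. Against TSZ+Nec-1s 6 of the 16 were higher in TSZ, beside 22.7% of all genes, whereas on total reads 4 were higher and 5 lower, and without the 3 libraries 7 and 2. On total reads TSZ against DMSO had 4 higher and 4 lower, with a median of -0.08, and without the 3 libraries 8 higher and 2 lower.

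Among 22 tested annexins and other repair proteins, 17 were higher in TSZ than in DMSO and 1, RAB27A, was lower, beside 26% and 24.2% of all genes, with a median log2 fold change of 0.59. CAV1, a caveolar coat protein, had the largest, 2.03. RAB27A was at 20.6 ± 4.76 in DMSO and 9.38 ± 8.21 in TSZ, near the mean of 10 scaled reads needed for testing. Annexins bind calcium and phospholipid at wounds, and ANXA1 averaged 2910.1 ± 49.5 in DMSO, 3152 ± 76.0 with TSZ+Nec-1s and 8144 ± 721 with TSZ. The annexin ANXA2, the membrane-remodelling ATPase EHD1 and S100A11, a calcium-binding annexin partner, had log2 fold changes of 1.39, 1.35 and 1.33. In TSZ+Nec-1s against DMSO 7 of the 22 were higher, beside 7.16% of all genes. On total reads 5 were higher and 2 lower, beside 6.18% and 11% of all genes. Without the 3 libraries 10 were higher and 5 lower, beside 27% and 23.1%. ANXA2, CAV1 and EHD1 were among the 7 (limma, 0.62, 1.02 and 0.86, adjusted p = 0.00142, 0.00489 and 0.000419). Against TSZ+Nec-1s 16 were higher in TSZ and 1 lower, beside 22.7% and 19.8% of all genes, on total reads 7 and 1, and without the 3 libraries 18 and 1. In TSZ against DMSO 10 of the 22 were higher and 1 lower on total reads, and 18 and 1 without the 3 libraries.

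**Figure D5:**
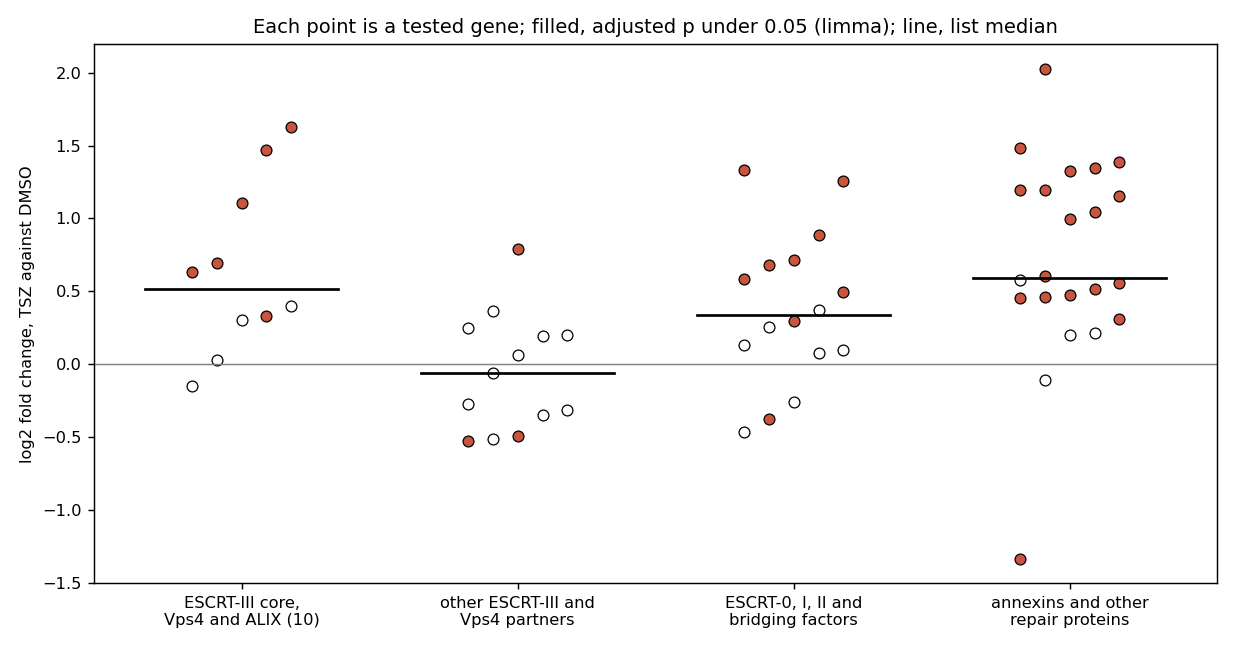
Log2 fold changes in TSZ against DMSO (y axis) of the tested genes of 4 lists (x axis), with filled points for an adjusted p under 0.05 in limma and a line at each median. The medians are 0.52 for the 10 genes, -0.06 for other ESCRT-III and VPS4 partners, 0.34 for ESCRT-0, I, II and bridging factors and 0.59 for annexins and other repair proteins.

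In the death machinery itself RIPK3 rose and RIPK1 fell in TSZ against DMSO. RIPK3 was at 92.5 ± 15.8 in DMSO and 215 ± 19.9 in TSZ (limma, log2 fold change 1.22, adjusted p = 3.02e-05), and RIPK1 at 517 ± 20.1 and 351 ± 50.8 (-0.57, adjusted p = 0.0015). MLKL was at 382 ± 39.1 and 306 ± 29.8 and did not pass the test against DMSO (-0.32, adjusted p = 0.0569), whereas it was lower in TSZ than in TSZ+Nec-1s (-0.37, adjusted p = 0.0323). Against DMSO MLKL was called lower in TSZ on total reads, with the GC trend removed and without the 3 libraries that follow GC content (limma, log2 fold changes -0.73, -0.24 and -0.36, adjusted p = 0.000198, 0.0463 and 0.0175).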

How the data were processed

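Polyadenylated RNA of HT-29 cells was analysed in 4 groups of 3 libraries. Per the labels and the study's methods, single-end reads were mapped to hg38 with STAR, counted per gene with HTSeq without regard to strand (reads on overlapping genes dropped) and normalized with DESeq. The authors deposited 6 pairwise tables of 26485 genes. The values used are the group means that the authors computed from their counts, a signal in reads divided by DESeq size factors. Fold changes and p-values of the authors' own comparisons were not used. A group's means were the same in each of its tables.

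Whole reads per library were solved from the means, since each mean is a sum of 3 whole counts over 3 size factors read from low genes; size factors recomputed from the solved reads differed by at most 0.0696%. Where several sets fitted, the set with every library at 0.5 to 1.6 times the mean was taken, which none of the 10 genes needed. The recovery and the fit were tested on simulated data. Python 3.11.15, R 4.3.3 and limma 3.58.1 were used.

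Limma with voom weights was fitted to all 12 libraries with 1 mean per group, for 11738 genes with a mean of at least 10 scaled reads. P-values were adjusted by Benjamini-Hochberg over all genes tested, and genes were called at an adjusted p under 0.05. Log2 fold changes are on the voom scale. The pattern search used log2(scaled reads + 1). Positions, lengths and GC content are of the canonical GENCODE transcript (hg38). Gene names matched directly for 23161 genes, 1384 matched by a RefSeq synonym and 1940 did not match.

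Named genes were the 10 genes, RIPK1, RIPK3 and MLKL, the 5 genes most like CHMP1B (1 of them is not reported here), and at most 6 genes per pathway list that were called with a fold of at least 1.5 in TSZ against DMSO or TSZ+Nec-1s, by size of the change against DMSO; LEMD2 was added after its value was seen, and markers were read as lists. The 10 genes and the lists were chosen with earlier results of these data known. Alternatives were total-read scaling, other filters on low values, no weights with a pseudocount of 1 or 5, fits on 6 libraries, removal of GC trends and leaving out libraries.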

Additional observations from a re-analysis of the deposited data

How the results depend on the processing

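No paired analysis was possible because the tables carry group means, from which libraries cannot be matched to replicate numbers, so no replicate block could be fitted. Of 840 values of single genes under the alternatives, 731 kept their direction and side of the threshold, 29 gained a call and 19 lost one. The other 61 turned in sign, 11 of them on total reads, 11 with GC trends removed, 9 without the 3 libraries that follow GC content and the rest on leaving out 1 library. Of the 61, 60 were called in neither fit, and 1 had been called, PDCD6IP in TSZ against DMSO, at -0.080 on total reads. Libraries of the groups compared were left out 1 at a time. In TSZ against DMSO this gave 5 to 7 calls, with 2702 to 3385 of all genes higher and 2389 to 3126 lower. TSZ against TNFα gave 4 to 6, with 2251 to 2639 higher and 2103 to 2243 lower. TSZ against TSZ+Nec-1s gave 4 throughout, with 2123 to 2844 higher and 1756 to 2308 lower. TSZ+Nec-1s against DMSO gave 0 to 3, the 3 without DMSO b and 1 without DMSO c. All genes called there were 552 to 2227 higher and 313 to 1691 lower. The other comparisons gave 0 throughout, with at most 386 genes higher and 214 lower. Without DMSO b 2227 of 11723 genes were higher and 1691 lower in TSZ+Nec-1s against DMSO. For TSZ+Nec-1s against DMSO there were 2 calls with GC trends removed and 6 without the 3 libraries that follow GC content. Beside these, 15.9% of all genes were higher and 12.8% lower, and 27% and 23.1%. Against TNFα there were 1 and 3, beside 3.61% and 1.57%, and 22.1% and 19.1%, of all genes. With only the 6 libraries compared there were 2 against TNFα. The cause was not tested. In that last fit all genes called went from 128 higher and 30 lower to 1998 and 1160. At 3 libraries per group the intervals of VPS4B, CHMP3 and CHMP2B limit what the absence of a call can show.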
